A study of Homo sapiens with 18 samples.

Results

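The Hippo pathway restrains tissue growth by keeping the transcriptional coactivators YAP1 and WWTR1 (also called TAZ) out of the nucleus. Its kinases LATS1 and LATS2 phosphorylate both coactivators, proteins of the angiomotin family such as AMOTL1 and AMOTL2 tether them in the cytoplasm, and the LIM-domain protein AJUBA binds and inhibits the LATS kinases. In the nucleus YAP1 and WWTR1 act through the DNA-binding TEAD factors, among them TEAD1 and TEAD4, on target genes that include ANKRD1 and the pathway's own negative regulators LATS2 and AMOTL2. These 10 genes were chosen by name from among the 16715 genes listed in the RNAseq tables of MCF10A or hTERT RPE-1 cells. All 10 were listed in both tables and passed the filter on low values in both cell lines, where 14726 genes of MCF10A and 14527 of RPE-1 were tested. Their mRNA levels do not measure phosphorylation or nuclear entry of YAP1 and WWTR1.

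MCF10A is a near-normal human breast epithelial cell line, and hTERT RPE-1 (RPE-1 from here on) is a human retinal pigment epithelial line immortalised with telomerase. Each line was collected 72 h after transfection with 30 nM of a non-targeting siRNA (siNT), a mimic of hsa-miR-28-5p (miR-28) or a mimic of hsa-miR-708-5p (miR-708), both of the MIR-28 family, with 3 biological replicates per group and 18 libraries in all. A mimic is a synthetic double-stranded RNA that supplies the mature microRNA far above its usual level, and siNT was the shared control for small RNA transfection in each line. Both mimics were compared with the same 3 siNT libraries of their line, so that their fold changes are not independent of each other. Every library is a transfected culture of 1 line per tissue, and no untransfected cells were analysed here.

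Each value is a normalised read count, the reads estimated for a gene after division by the size factor of the library. The depth was 19.4–31.7 M reads on genes per MCF10A library and 23.8–40.4 M per RPE-1 library. The tables of the lines were scaled separately, so levels set across the lines are not on a common scale. All 10 breast epithelial markers looked for, with KRT5 and KRT14 among them, were listed in MCF10A, and 3 of them (TP63, CDH3 and ITGB4) were also listed in RPE-1. Of 10 retinal pigment epithelial markers, 7 were listed in RPE-1 and 5 in MCF10A. RPE65 was listed in MCF10A and not in RPE-1, and TYRP1, listed in RPE-1, failed the filter on low values. The siNT mean of BEST1 was 794.6 in MCF10A and 165.5 in RPE-1, each on its own scale. These markers therefore did not set the lines apart. The library of RPE-1 replicate 1 with miR-28 stood apart, with 16.6% of its reads on rRNA genes against 4.84–7.88% in the other 8 libraries of that line.

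The mature sequence of hsa-miR-708-5p is shown first because the family is defined by its seed, bases 2 to 8, which hsa-miR-28-5p shares by the study's account. It lies on the minus strand at chr11:79402077-79402099 (GRCh38.p14, RefSeq), and capitals mark the seed.
hsa-miR-708-5p: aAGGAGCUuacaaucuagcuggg

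Matches to the seed were searched for in the annotated 3′ UTR of the canonical transcript of each gene (GENCODE 44, hg38), as AGCTCCT (bases 2 to 8), GCTCCTA (bases 2 to 7 and an A) or the 6-base GCTCCT. AJUBA held 2 matches to bases 2 to 8 and AMOTL2 held 1, all in the last exon. YAP1 and AMOTL1 each held 1 match to bases 2 to 7 followed by an A. TEAD1 had matches of 6 bases only, and no match was found in WWTR1, TEAD4, LATS1, LATS2 or ANKRD1. A 7-base match was present in 18.7% of the 13775 tested genes with an annotated 3′ UTR, and 2 or more of them in 4.07%. Among the 946 genes whose 3′ UTR was within 10% of the length of that of AJUBA (2266 bases), 4.55% had 2 or more. At least 1 was held by 24.7%, 30% and 46.2% of the genes with a 3′ UTR as long as those of AMOTL2, YAP1 and AMOTL1. A match is a description of the sequence, and binding was not measured here. The 7-base matches are printed with the flanking bases of the transcript strand, with the match in capitals, from AJUBA at chr14:22972758-22972786 and chr14:22972633-22972661 (minus strand, exon 8), AMOTL2 at chr3:134356789-134356817 (minus strand, exon 10), YAP1 at chr11:102231393-102231421 (plus strand, exon 9) and AMOTL1 at chr11:94872289-94872317 (plus strand, exon 13).
AJUBA, first match: accaaatttaAGCTCCTcactttttgtga
AJUBA, second match: ggactaggagAGCTCCTtatctgtctgag
AMOTL2: gtggctccacAGCTCCTgtccctggaaca
YAP1: ttacaagacttGCTCCTActtctatgctg
AMOTL1: atcagagagatGCTCCTAcagggtcctga

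In siNT cells the order of the 10 genes differed between the lines. Per kilobase of transcript, YAP1 was the highest in MCF10A, with a normalised read count of 1582 ± 79.7 (SD, n = 3), and ANKRD1, a nuclear ankyrin-repeat protein widely used as a readout of YAP1 activity, was the lowest at 2.49 ± 0.533. AMOTL1, TEAD1 and AJUBA followed YAP1 in MCF10A at 567, 566 and 481 per kilobase, and these neighbours overlapped from replicate to replicate. WWTR1 came next at 388, then LATS1, TEAD4 and AMOTL2 at 236, 199.1 and 187 with overlapping neighbours, and LATS2 at 155.

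In RPE-1 cells ANKRD1 headed the order instead, with 26580 ± 1205 per kilobase. TEAD1 (1523) and YAP1 (1331) followed, with overlapping ranges. Below them stood WWTR1 at 1216, AJUBA at 1027, AMOTL2 at 731, AMOTL1 at 552, LATS2 at 402, LATS1 at 308 and TEAD4 at 226, and no other neighbours overlapped.

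**Figure D1:**
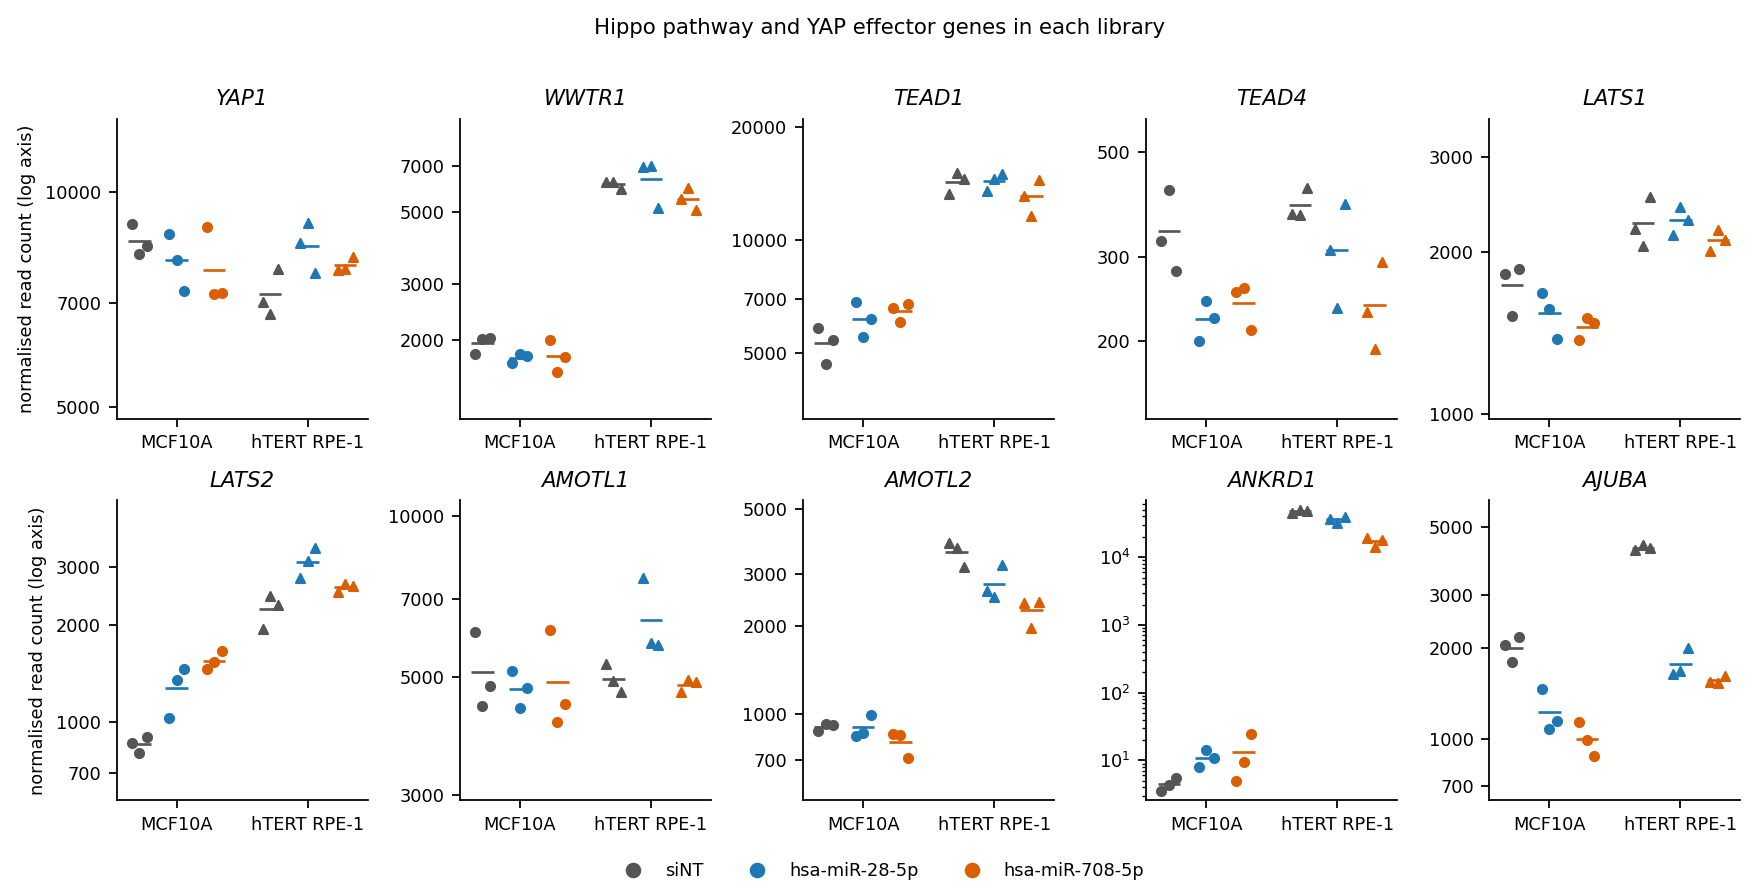
Normalised read count of each of the 10 genes in each library, on a log axis, with circles for MCF10A and triangles for RPE-1, colours for siNT and the mimics, and a line at each group mean (n = 3). AJUBA sits lower with both mimics in both lines, and ANKRD1 lies between 3.59 and 24.8 in MCF10A and between 14357 and 49214 in RPE-1, with each line scaled on its own.

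AJUBA fell with both mimics in both cell lines, the only one of the 10 to pass the test in all 4 comparisons with siNT. In MCF10A, AJUBA read counts were 2040, 1792 and 2179 with siNT (replicates 7, 8 and 9), 1469, 1080 and 1152 with miR-28 and 1137, 993 and 879 with miR-708. No value with a mimic reached the siNT range. In bulk RNA of this kind, fewer cells of a type and less RNA per cell cannot be told apart. The mean was 1.62-fold lower with miR-28 (log2 fold change -0.71, SE 0.14, adjusted p = 0.0052) and 50.1% of that with siNT with miR-708 (log2 fold change -1.001, SE 0.14, adjusted p = 0.00039), by limma with Benjamini-Hochberg adjustment over all genes tested.

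In RPE-1 the decrease of AJUBA was from 4200, 4382 and 4260 with siNT (replicates 1, 2 and 3) to 1646, 1673 and 2001 with miR-28 and 1550, 1530 and 1616 with miR-708. The groups again lay apart, and the siNT libraries varied by only 2.17% (coefficient of variation). The fold changes were 2.41-fold lower (log2 -1.28, SE 0.09, limma adjusted p = 2.9e-06) and 2.73-fold lower (log2 -1.45, SE 0.09, limma adjusted p = 4.9e-07). With any 1 library left out, the log2 fold change of AJUBA stayed between -1.37 and -1.22 with miR-28 and between -1.48 and -1.43 with miR-708 in RPE-1, and between -0.84 and -0.62 and between -1.09 and -0.91 in MCF10A. The call was kept in each of these fits. AJUBA is also the gene among the 10 with 2 of the 7-base seed matches printed above. Of the other genes with such a match, AMOTL2 was called lower in RPE-1 only. AMOTL1 was called higher with miR-28 in RPE-1, and YAP1 was not called against siNT. Whether the matches have a part in any of these values was not tested.

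LATS2, the kinase that phosphorylates YAP1 and WWTR1 and is itself transcribed in response to them, was higher with the mimics. In MCF10A its read counts were 864, 805 and 902 with siNT, 1028, 1352 and 1455 with miR-28, and 1463, 1533 and 1653 with miR-708. All 6 libraries with a mimic were above all 3 siNT libraries. LATS2 rose 1.49-fold with miR-28 (log2 fold change 0.56, SE 0.13, limma adjusted p = 0.0104) and 1.81-fold with miR-708 (log2 fold change 0.85, SE 0.13, limma adjusted p = 0.00065).

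In RPE-1, LATS2 counts were 1944, 2444 and 2305 with siNT and 2782, 3146 and 3447 with miR-28, a 1.4-fold rise with no overlap (log2 0.49, SE 0.11, limma adjusted p = 0.0037). With miR-708 the LATS2 counts of 2516, 2670 and 2627 also lay above the siNT range, but the difference did not pass the test (log2 0.23, 95% interval -0.01 to 0.46, limma adjusted p = 0.083). With library size scaling the latter was called (log2 0.55, limma adjusted p = 0.0017), where the median of all genes was 0.32. Its paralogue LATS1 was not called in any comparison. The log2 fold changes of LATS1 were -0.17 and -0.25 in MCF10A and 0.02 and -0.10 in RPE-1, with miR-28 and miR-708 respectively. Left out of the fit, siNT replicate 8 in MCF10A brought LATS1 past the threshold with miR-708 (log2 -0.34, limma adjusted p = 0.048).

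ANKRD1 fell in RPE-1 cells, where it was abundant. Its counts were 45133, 49214 and 48390 with siNT, 36667, 32321 and 39334 with miR-28, and 19104, 14357 and 17790 with miR-708. The 3 groups did not overlap. ANKRD1 was 1.32-fold lower with miR-28 (log2 -0.40, SE 0.13, limma adjusted p = 0.027) and 2.79-fold lower with miR-708 (log2 -1.49, SE 0.13, limma adjusted p = 5.4e-06). The smaller change, with miR-28, missed the threshold when siNT replicate 2, siNT replicate 3 or miR-28 replicate 2 was left out (log2 -0.38, -0.39 and -0.32, limma adjusted p = 0.08, 0.061 and 0.08), and also when libraries were scaled to their total (log2 -0.32, limma adjusted p = 0.067). The change with miR-708 kept its call throughout.

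In MCF10A, ANKRD1 was near the limit of detection and entered the fit only through libraries with a mimic, at counts of 3.59, 4.29 and 5.48 with siNT, 8.04, 14.1 and 10.8 with miR-28, and 5, 9.57 and 24.8 with miR-708. By the step of each library these values stand for 3, 4 and 6 reads, 6, 17 and 11 reads, and 6, 10 and 26 reads. In this line 3 reads, taken as the floor, were worth 2.49–4.02. The difference from siNT did not pass the test with miR-28 (limma adjusted p = 0.192) or with miR-708 (limma adjusted p = 0.166), and the fitted log2 fold changes of 1.12 and 1.13, with 95% intervals that ran from -0.17 to 2.42 in each case, depend on the pseudocount of 1 at such low counts.

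The promoter of ANKRD1 is given because the gene is a TEAD target and had the largest log2 fold change of the 10 with miR-708 in RPE-1 (-1.49, against -1.45 for AJUBA). The TEAD core GGAATG was searched for on both strands of the RefSeq promoters (GRCh38.p14, 250 bases before to 50 after the gene start), of which 8 of the 10 genes had an entry. ANKRD1 held 2 cores, 220 and 128 bases before the start. YAP1 held 1, 162 bases before the start, LATS2 held 1 just after its start, and AMOTL2 and AJUBA held none in this window. The windows of WWTR1, LATS1 and AMOTL1 held none either, but they lie at a RefSeq start inside the gene as annotated in GENCODE 44, and not at the gene start used for the transcripts above. Among the 12030 promoters of tested genes 11.2% held the core, and among all 27305 promoters 14%. The stretches of ANKRD1 lie at chr10:90921290-90921319 and chr10:90921198-90921227 (minus strand), that of YAP1 at chr11:102110273-102110302 (plus strand) and that of LATS2 at chr13:21061560-21061589 (minus strand), printed on the strand of the gene with the core in capitals.
ANKRD1, distal core: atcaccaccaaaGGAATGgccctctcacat
ANKRD1, proximal core: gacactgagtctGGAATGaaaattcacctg
YAP1: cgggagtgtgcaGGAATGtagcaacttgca
LATS2: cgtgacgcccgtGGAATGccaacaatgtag

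AMOTL2, which tethers YAP1 and is also a target of it, fell in RPE-1. Its counts were 3828, 3674 and 3180 with siNT, 2625, 2509 and 3229 with miR-28, and 2403, 1972 and 2411 with miR-708. With miR-708 all libraries were below siNT (log2 -0.66, SE 0.12, limma adjusted p = 0.00087), while replicate 3 with miR-28 lay within the siNT range (log2 -0.36, SE 0.12, limma adjusted p = 0.034). That second call was lost when siNT replicate 1 or 2 was left out (log2 -0.30 and -0.33, limma adjusted p = 0.117 and 0.097), when miR-28 replicate 1 or 2 was left out (log2 -0.32 and -0.29, limma adjusted p = 0.078 and 0.1), with library size scaling (log2 -0.27, limma adjusted p = 0.103) and without a trend over the mean (limma adjusted p = 0.062).

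In MCF10A, AMOTL2 counts were 877, 927 and 920 with siNT, 846, 866 and 994 with miR-28, and 854, 847 and 712 with miR-708. The change was not called with miR-28 (log2 -0.01, 95% interval -0.25 to 0.23) or miR-708 (log2 -0.18, 95% interval -0.42 to 0.06).

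AMOTL1 was higher with miR-28 in RPE-1, at 7639, 5786 and 5725 against 5276, 4913 and 4677 with siNT (log2 0.35, SE 0.11, limma adjusted p = 0.024). The highest value belonged to replicate 1, the library with the high rRNA share. Without it the log2 fold change of AMOTL1 was 0.22 (limma adjusted p = 0.065), and without siNT replicate 2 or 3 it was 0.35 or 0.31 (limma adjusted p = 0.065 and 0.072). With miR-708, AMOTL1 counts of 4677, 4922 and 4880 were within the siNT range. In MCF10A the log2 fold changes were -0.09 and -0.07, and replicate 7 was the highest library of its group with siNT, with miR-28 and with miR-708 (6057, 5134 and 6117).

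TEAD4, the least abundant of the 10 per kilobase in RPE-1, was lower with the mimics. In MCF10A its counts were 324.4, 415.7 and 281.2 with siNT, 199.8, 243.0 and 223.7 with miR-28, and 253.2, 258.7 and 210.97 with miR-708. TEAD4 fell with miR-28 (log2 -0.60, SE 0.17, limma adjusted p = 0.03). The corresponding value with miR-708 was just above the threshold (log2 -0.48, SE 0.17, limma adjusted p = 0.052) and was called when the replicate numbers were entered as a block (limma adjusted p = 0.024), without siNT replicate 9 (log2 -0.61, limma adjusted p = 0.038) or without miR-28 replicate 7 (limma adjusted p = 0.045). The call with miR-28 was lost when siNT replicate 7 or 8 was left out (log2 -0.62 and -0.45, limma adjusted p = 0.062 and 0.117), when any of the miR-28 replicates 7, 8 and 9 was left out (log2 -0.53, -0.67 and -0.61, limma adjusted p = 0.072, 0.053 and 0.069), and with library size scaling (log2 -0.49, limma adjusted p = 0.058).

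In RPE-1, TEAD4 counts were 370.4, 368.9 and 419.7 with siNT, 310.8, 234.2 and 387.9 with miR-28, and 229.9, 192.1 and 293.6 with miR-708. Only with miR-708 did TEAD4 fall past the threshold (log2 -0.71, SE 0.20, limma adjusted p = 0.0094), against a log2 fold change of -0.34 (limma adjusted p = 0.183) with miR-28, and the difference between the mimics was not called (log2 -0.37, limma adjusted p = 0.206) unless miR-28 replicate 2 was left out (log2 -0.56, limma adjusted p = 0.043). Library size scaling took the call with miR-708 away (log2 -0.39, limma adjusted p = 0.1).

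TEAD1, the more abundant DNA-binding partner, was at 5852, 4692 and 5443 with siNT in MCF10A, at 6862, 5546 and 6175 with miR-28, and at 6622, 6064 and 6780 with miR-708. The log2 fold changes were 0.22 (limma adjusted p = 0.184) and 0.29 (limma adjusted p = 0.069), and the latter was called with the replicate block (limma adjusted p = 0.022), without miR-28 replicate 7 (limma adjusted p = 0.049) and with library size scaling (log2 0.43, limma adjusted p = 0.0124). In RPE-1 the values of TEAD1 overlapped siNT with both mimics (log2 0.00 and -0.13).

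The coactivators themselves moved little. YAP1 counts in MCF10A were 9025, 8199 and 8403 with siNT, 8740, 8040 and 7277 with miR-28, and 8926, 7190 and 7215 with miR-708. In RPE-1 they were 7021, 6752 and 7800 with siNT, 8478, 9037 and 7706 with miR-28, and 7774, 7802 and 8105 with miR-708. The groups overlapped in each of the 4 comparisons.

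None of these differences of YAP1 passed the test, with 95% intervals of the log2 fold change from -0.34 to 0.15 and from -0.39 to 0.11 in MCF10A, and from 0.03 to 0.42 and from -0.06 to 0.34 in RPE-1. YAP1 with miR-28 in RPE-1 was close to the threshold (log2 0.22, limma adjusted p = 0.061) and passed it without siNT replicate 3 (log2 0.28, limma adjusted p = 0.03) or without miR-28 replicate 3 (log2 0.29, limma adjusted p = 0.04). With library size scaling YAP1 was called in RPE-1 with both mimics (log2 0.31 and 0.46, limma adjusted p = 0.027 and 0.0022), beside medians of 0.09 and 0.32 over all genes. WWTR1 was not called in any of the 4 comparisons either, with 95% intervals from -0.37 to 0.07 and from -0.35 to 0.09 in MCF10A, and from -0.22 to 0.31 and from -0.42 to 0.11 in RPE-1. A fold change of the size seen for AJUBA in the same libraries was outside these intervals.

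**Figure D2:**
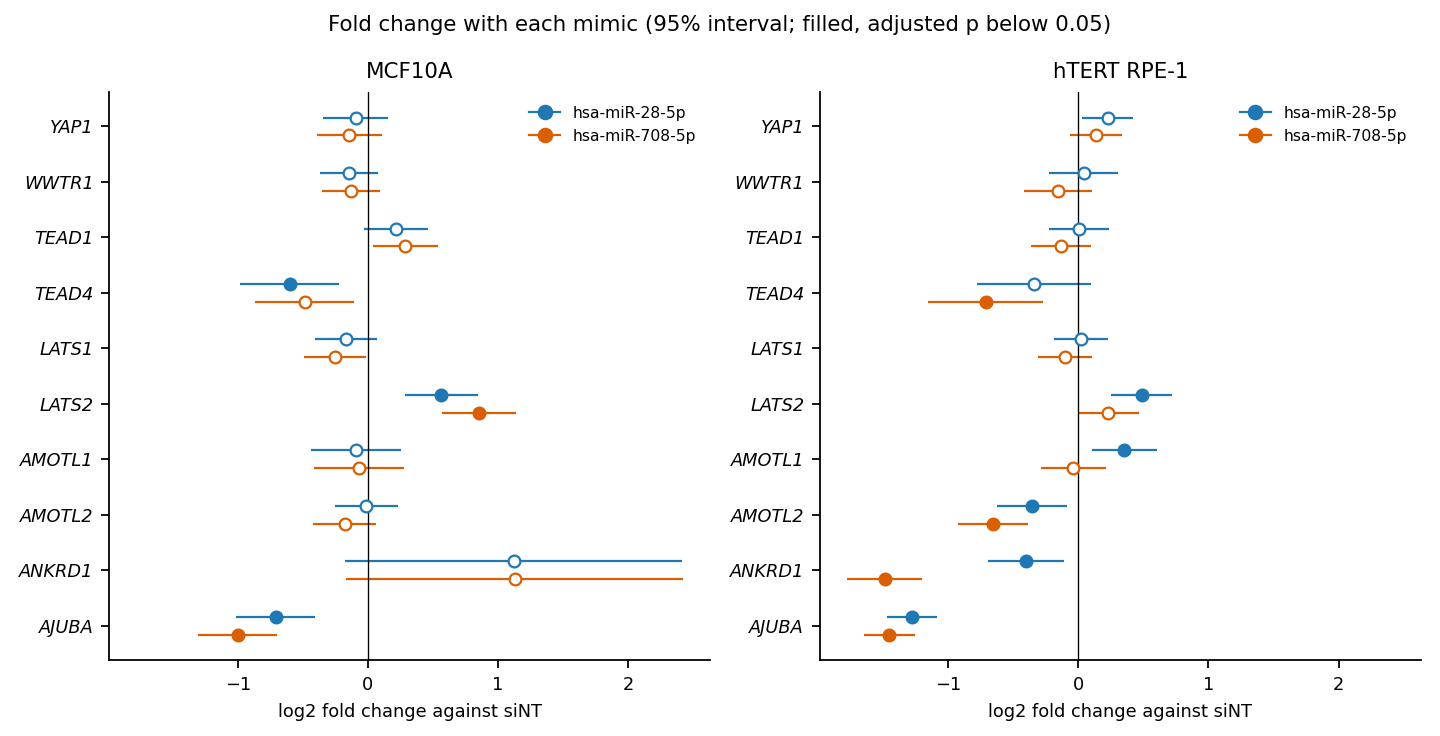
Log2 fold change of each gene with each mimic against siNT in MCF10A (left) and RPE-1 (right), with bars for the unadjusted 95% interval from limma (n = 3 libraries per group) and filled points for an adjusted p below 0.05. AJUBA is left of 0 in all 4 comparisons, YAP1, WWTR1 and LATS1 have open points throughout, and the wide bars are those of ANKRD1 in MCF10A.

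Counted together, 1 of the 10 genes rose and 2 fell with miR-28 in MCF10A, where 10.7% of all genes tested were called higher and 12% lower. With miR-708 in MCF10A 1 rose and 1 fell, against 15.5% of all genes higher and 17.3% lower, and the replicate block, which also called TEAD1 and TEAD4, raised the total from 2 to 4. In RPE-1, 2 rose and 3 fell with miR-28, against 23.3% and 23.5% of all genes, and none rose and 4 fell with miR-708, against 30.9% and 31.2%. The median log2 fold change of the 10 was -0.09 and -0.14 in MCF10A and 0.01 and -0.14 in RPE-1, beside medians between -0.005 and 0.006 over all genes tested.

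Of the 5 genes called in RPE-1 with miR-28, the count was 2 without siNT replicate 2 and 3 without miR-28 replicate 1 or 2. The 2 called in MCF10A with miR-708 became 4 without miR-28 replicate 7. Scaling each library to its total instead of by the deposited size factors put the median over all genes tested at 0.12 and 0.14 in MCF10A, at 0.09 and 0.32 in RPE-1 and at 0.23 between the mimics in RPE-1. With that scaling, 66.2% and 67.6% of the called genes were higher in MCF10A (47.1% and 47.3% otherwise), and 59.4% and 71.9% in RPE-1 (49.9% and 49.7% otherwise). Between the mimics in RPE-1 the share was 84.8% (46.5% otherwise), and for the line difference with miR-708 it was 68.5% (50.8% otherwise). AJUBA and LATS2 kept their calls and directions in MCF10A, as did AJUBA, ANKRD1 and AMOTL2 with miR-708 in RPE-1.

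The mimics were then compared with each other, at the same dose and time, over 10 genes in each line. In MCF10A none of the 10 passed the test (limma, adjusted p of 0.303 or more, 1 of the 10 at an unadjusted p below 0.05), where 1.28% of all genes were higher with miR-708 and 0.265% lower. Of the 10, only LATS2 had an unadjusted 95% interval clear of 0 (log2 0.29, from 0.01 to 0.57). The interval for AJUBA ran from -0.60 to 0.01.

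In RPE-1, 2 of the 10 were lower with miR-708 than with miR-28 and none was higher, against 11.4% and 9.88% of all genes. ANKRD1 was 2.11-fold lower (log2 -1.09, SE 0.13, limma adjusted p = 0.00085), and its ranges of 14357–19104 and 32321–39334 did not overlap. AMOTL1 was 1.32-fold lower (log2 -0.39, SE 0.11, limma adjusted p = 0.032), but the call was lost without miR-28 replicate 1 (log2 -0.25, limma adjusted p = 0.078), without miR-708 replicate 1, 2 or 3 (log2 -0.37, -0.41 and -0.40, limma adjusted p = 0.096, 0.065 and 0.088), with library size scaling (log2 -0.16, limma adjusted p = 0.263) and without a trend over the mean (limma adjusted p = 0.063). WWTR1 was called only without miR-28 replicate 3 (log2 -0.34, limma adjusted p = 0.048). AJUBA was not called between the mimics (log2 -0.17, 95% interval -0.37 to 0.02).

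Cycling genes also differed between these groups. The summed counts of MKI67, TOP2A, CCNB1, CDK1 and PCNA in RPE-1 were 14193–22180 with siNT, 21267–23713 with miR-28 and 29485–41536 with miR-708. Against siNT all 5 were called higher with miR-708 (30.9% of all genes) and 2 with miR-28 (23.3% of all genes). Between the mimics, MKI67, CCNB1 and CDK1 were called higher with miR-708, as were 9.88% of all genes, and TOP2A and PCNA were not called (limma adjusted p = 0.0547 and 0.302). In MCF10A, where ANKRD1 was near its floor, the sums were 36116–39836, 37969–44297 and 35398–37069. There 1 of the 5 was called higher with miR-28 (10.7% of all genes). With miR-708, 1 was called higher and 1 lower (15.5% and 17.3% of all genes). Their part in the values of the 10 genes was not tested.

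A difference in response between the cell lines was tested as the difference of their log2 fold changes over the 13339 genes tested in both. For miR-28, 1 of the 10 genes had a lower log2 fold change in RPE-1 and none a higher one, where 11.3% of all genes were lower and 12.1% higher. This was AJUBA, whose log2 fold change was -1.28 against -0.71 (difference -0.57, SE 0.16, adjusted p = 0.0173 from the limma fold changes with Satterthwaite degrees of freedom). The call on AJUBA was lost without siNT replicate 8 or miR-28 replicate 7 of MCF10A (difference -0.49 and -0.44, limma adjusted p = 0.061 and 0.052).

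For miR-708, 5 of the 10 had a lower log2 fold change in RPE-1 and none a higher one, against 19.6% and 20.2% of all genes. ANKRD1 differed by -2.61 (SE 0.61, limma adjusted p = 0.0042) and LATS2 by -0.62 (SE 0.17, limma adjusted p = 0.005), and both calls were kept under library size scaling. The call on LATS2 was also kept with each library left out. That on ANKRD1 was kept in the fits that held the gene. Without miR-28 replicate 8 or 9 or miR-708 replicate 9 of MCF10A, ANKRD1 failed the filter and had no value. In MCF10A, ANKRD1 passed the filter on low values only through 3 libraries with a mimic (14.1, 10.8 and 24.8), with all siNT libraries below 10, so its difference between the lines is given as a value and supports nothing further. ANKRD1 is 1 of the 5 genes counted above, so that count is not read against the share over all genes. TEAD1 differed by -0.42, AMOTL2 by -0.48 and AJUBA by -0.45 (limma adjusted p = 0.032, 0.025 and 0.035), and these 3 calls were lost under library size scaling (limma adjusted p = 0.217, 0.157 and 0.212). Those on TEAD1 and AJUBA were lost without a trend over the mean too (limma adjusted p = 0.0511 and 0.0656). The call on TEAD1 was also lost without siNT replicate 8 or 9 or miR-708 replicate 7 or 9 of MCF10A, or siNT replicate 2 or 3 or miR-708 replicate 1 or 2 of RPE-1 (difference between -0.44 and -0.33, limma adjusted p up to 0.103). That on AMOTL2 was lost without siNT replicate 7 or miR-708 replicate 8 of MCF10A, or siNT replicate 1 or 2 or miR-708 replicate 2 of RPE-1 (difference between -0.45 and -0.38, limma adjusted p up to 0.08). That on AJUBA was lost without siNT replicate 7 or 8 or miR-708 replicate 7 or 8 of MCF10A, or siNT replicate 2 or miR-708 replicate 1 or 2 of RPE-1 (difference between -0.47 and -0.36, limma adjusted p up to 0.112). YAP1, WWTR1, TEAD4, LATS1 and AMOTL1 were not called in either difference, although YAP1 passed the threshold for miR-708 without the MCF10A library of replicate 7 with that mimic (difference 0.38, limma adjusted p = 0.029) and with library size scaling (difference 0.45, limma adjusted p = 0.016), and AMOTL1 passed it for miR-28 with the replicate block (difference 0.44, limma adjusted p = 0.0234 against 0.102).

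**Figure D3:**
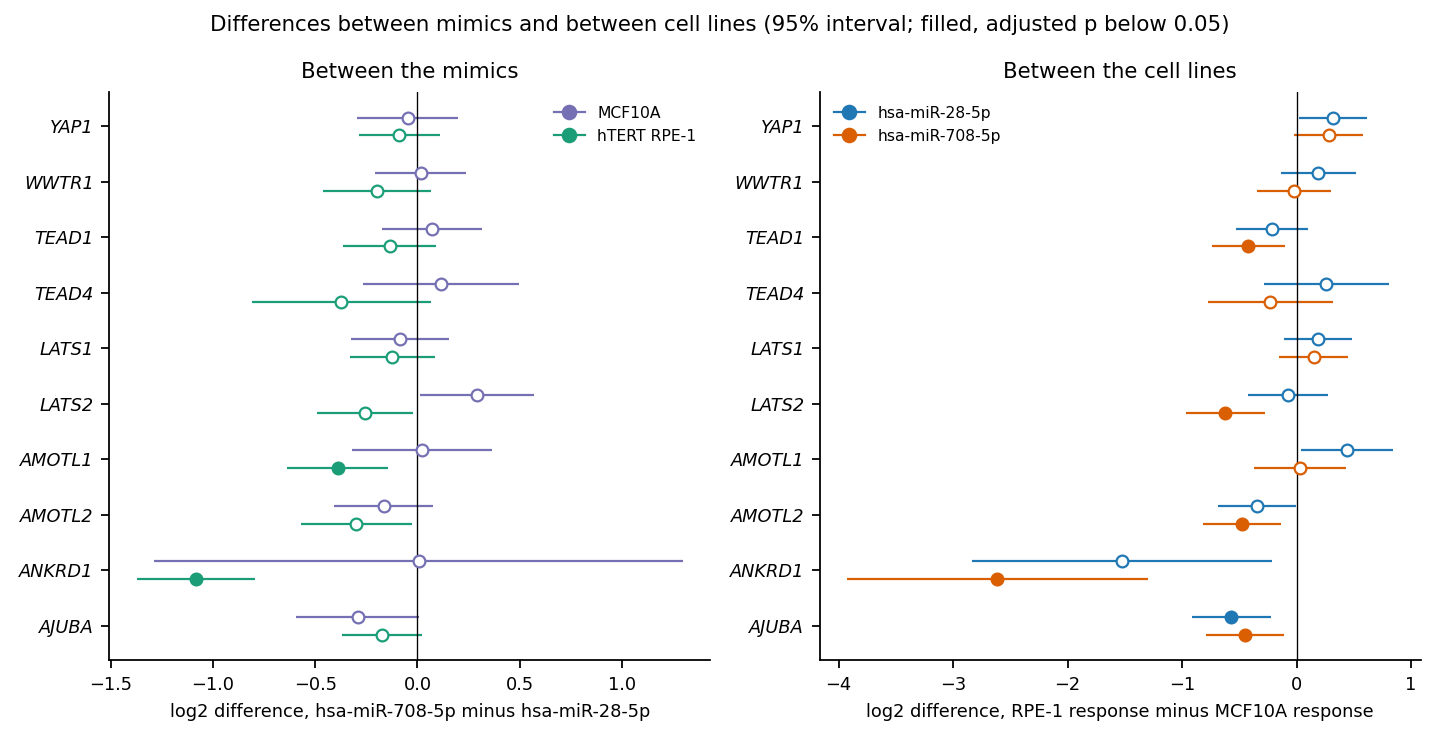
Log2 difference of each gene between miR-708 and miR-28 in each line (left), and between the response of RPE-1 and that of MCF10A to each mimic (right), with unadjusted 95% intervals (n = 3 libraries per group) and filled points for an adjusted p below 0.05. In the left panel only ANKRD1 and AMOTL1 in RPE-1 are filled, and in the right panel ANKRD1 with miR-708 lies farthest from 0 at -2.61.

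Of 24 other genes of the pathway (the kinases upstream of LATS, their scaffolds and adaptors, the atypical cadherins, and TEAD cofactors), 7 rose and 1 fell with miR-28 in MCF10A, and 6 rose and 2 fell with miR-708. The shares over all genes in MCF10A were 10.7% and 12% with miR-28 and 15.5% and 17.3% with miR-708. In RPE-1, 9 rose and 7 fell with miR-28 (23.3% and 23.5% of all genes) and 7 rose and 10 fell with miR-708 (30.9% and 31.2% of all genes). The medians of the 24 were 0.10 and 0.15 in MCF10A and 0.13 and -0.14 in RPE-1. The 8 called with miR-28 in MCF10A were 4 or 5 without siNT replicate 7, 8 or 9 or miR-28 replicate 9.

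The paired kinases at the top of the cascade moved in opposite directions in both lines. In MCF10A, STK3 (MST2) rose (log2 0.57 and 0.73 with miR-28 and miR-708, limma adjusted p = 0.0147 and 0.0027) and STK4 (MST1) fell (log2 -0.51 and -0.58, limma adjusted p = 0.01 and 0.0031). The rule for naming genes did not pick these kinases in RPE-1, and they are given there beside MCF10A. In RPE-1, STK3 rose by 0.56 and 0.42 on the log2 scale (limma adjusted p = 0.00104 and 0.0038) and STK4 changed by -0.67 and -0.41 (limma adjusted p = 9.72e-05 and 0.00123). In MCF10A FAT4, an atypical cadherin, rose from a mean count of 371 to 914 and 714 (log2 1.29 and 0.92), and WWC3, WWC2 and TAOK2, upstream regulators of LATS activity, rose by 0.33–0.54 on the log2 scale.

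In RPE-1 the genes of the list that changed most with both mimics were TEAD3, AMOT and FAT1, which fell, and TAOK3, WWC3 and SAV1, which rose. TEAD3, another TEAD factor, went from a mean of 1938 to 1129 and 680 (log2 -0.78 and -1.50), AMOT from 728 to 467 and 252 (log2 -0.66 and -1.53), and FAT1 from 57520 to 34900 and 22290 (log2 -0.75 and -1.37). SAV1, the scaffold of the MST kinases, rose from 840 to 1219 and 1430 (log2 0.52 and 0.75). TAOK3 rose by 0.64 and 1.09 and WWC3 by 0.66 and 0.70 on the log2 scale. Each of these 12 changes passed the test (limma adjusted p of 0.0289 or less).

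A list of 19 YAP/TAZ target genes, a commonly used signature taken without ANKRD1, LATS2 and AMOTL2, shares PTPN14 with the list above. In MCF10A, 2 rose and 1 fell with miR-28 (10.7% and 12% of all genes) and 7 rose and none fell with miR-708 (15.5% and 17.3% of all genes), with medians of 0.10 and 0.16. With miR-28, 8 of the 19 passed the test with the replicate block and 6 without miR-28 replicate 7. With miR-708, 4 passed without siNT replicate 7 or 9 or miR-708 replicate 8, and 3 without miR-708 replicate 9. GADD45A, a stress-response gene, was the 1 gene that passed with both mimics in MCF10A and had a mean count of at least 100, and it rose from 821 to 1387 and 1216 (log2 0.77 and 0.58). CCN1, a secreted matricellular protein named here after its values were seen, was at a mean of 265 with siNT and at 520 and 737 with the mimics (log2 0.92 and 1.47, limma adjusted p = 0.163 and 0.0268).

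In RPE-1, 4 of the 19 rose and 6 fell with miR-28 (23.3% and 23.5% of all genes), and 4 rose and 9 fell with miR-708 (30.9% and 31.2% of all genes), with medians of -0.16 and -0.36. CRIM1, a transmembrane protein, fell from a mean count of 45770 to 15630 and 10280 (log2 -1.56 and -2.16). F3, the tissue factor of blood clotting, fell from 12940 to 4227 and 4275 (log2 -1.61 with each), and TGFB2, a secreted growth factor, from 46010 to 26040 and 10040 (log2 -0.84 and -2.19). NUAK2, a kinase, fell by 0.94 and 0.98 on the log2 scale, whereas FOXF2 (0.68 and 1.09) and GADD45A (0.88 and 0.79) rose. CCN1 and CCN2, the latter also named after its values were seen, fell with miR-708 (log2 -0.57 and -0.62, limma adjusted p = 0.0068 and 0.0054) and were not called with miR-28 (log2 0.01 and 0.19).

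The summed counts of mesenchymal-like genes (VIM, CDH2, FN1, ZEB1 and SPARC) overlapped between siNT and miR-28 in both lines, although ZEB1 alone was called higher in MCF10A with both mimics (log2 1.06 and 1.21, limma adjusted p = 0.0453 and 0.0193). In RPE-1 the sums were 1347263–2107257 with siNT and 1034359–1188972 with miR-708. FN1 was the largest part of these sums and was not called with miR-708 (log2 -0.58, limma adjusted p = 0.205). Of the 5 genes only CDH2 was called with miR-708 in RPE-1, as lower (log2 -0.58, limma adjusted p = 0.00047), as were 31.2% of all genes. Breast epithelial markers in MCF10A summed to 220880–239367 with siNT, 155852–168372 with miR-28 and 132795–158657 with miR-708. Of the 10, 3 and 4 were called lower (12% and 17.3% of all genes). The 3 breast markers tested in RPE-1 (TP63, CDH3 and ITGB4) were all called lower with miR-708 and none with miR-28 (31.2% and 23.5% of all genes). Mean counts of TP63 and CDH3 were low, at 25.25 and 47.4 with siNT and 10.74 and 11.28 with miR-708, near the filter value of 10. Retinal pigment epithelial markers in RPE-1 summed to 2949–4344 with siNT (median 2999.5), 1953–2076 with miR-28 and 2112–2283 with miR-708. MITF and OTX2 were called lower with both mimics and PMEL with miR-28 only. In the other direction, RLBP1 was called higher with both mimics and BEST1 with miR-28 only. The mean counts of RLBP1 were low, at 2.42 with siNT, 13.03 with miR-28 and 12.63 with miR-708. RLBP1 passed the filter on low values only through libraries with a mimic, so its calls support nothing further. The part of any of these lists in the values of the pathway genes was not tested.

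**Figure D4:**
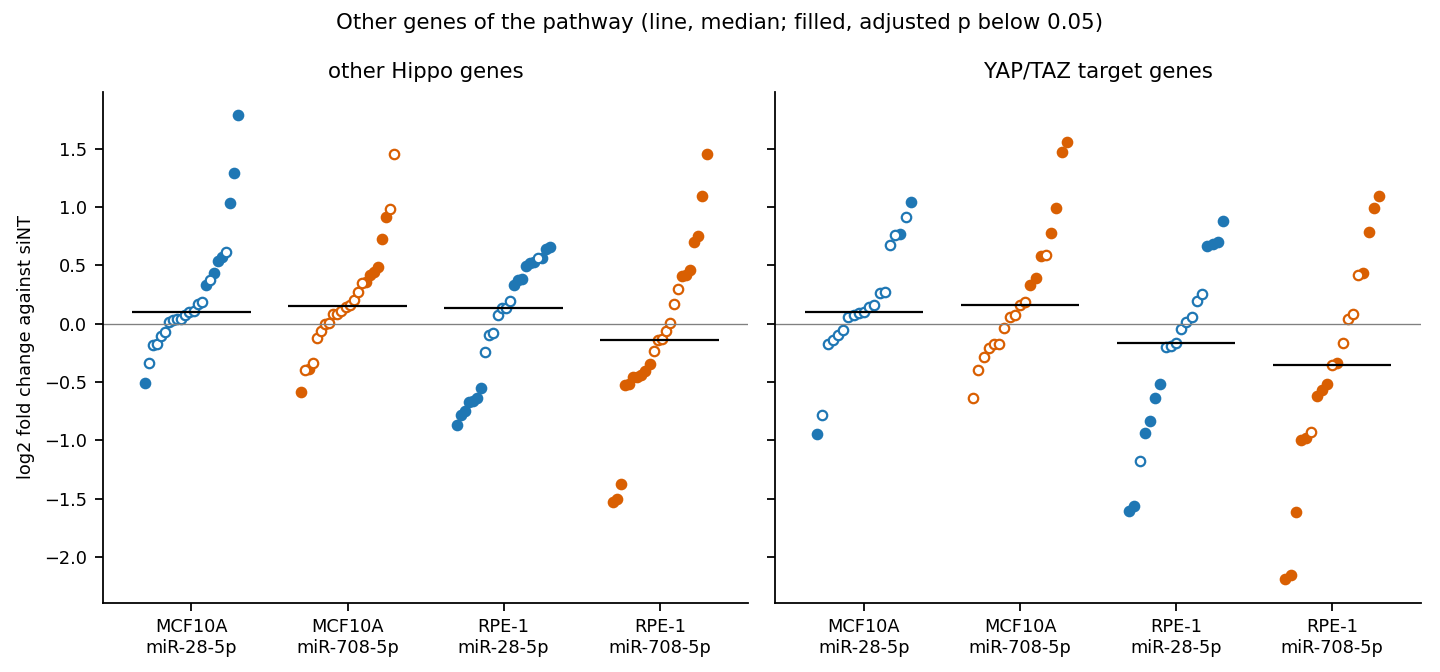
Log2 fold change against siNT of the 24 other Hippo pathway genes (left) and the 19 YAP/TAZ target genes (right) with each mimic in each line, ordered within each column, with a line at the median and filled points for an adjusted p below 0.05. The median of the target genes is 0.10 and 0.16 in MCF10A and -0.16 and -0.36 in RPE-1.

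The genes whose profile was most like that of YAP1 over the 9 libraries of a line were, in MCF10A, RUNX1, YWHAZ and SELENOI (Pearson r of 0.973, 0.969 and 0.967 among 11258 genes). In RPE-1 they were DHX36, PPIG and RBM26 (r of 0.960, 0.955 and 0.954 among 11439 genes). No gene was in both groups, and the libraries of a line share their scaling. Exons of YAP1, WWTR1, LATS1, AMOTL1, AMOTL2 and AJUBA overlap those of other annotated genes over 11 to 756 bases. For AMOTL2 (187 bases) and AJUBA (50 bases) the other gene is on the same strand, and strand cannot tell the reads of the shared bases apart. The other 4 (YAP1, WWTR1, LATS1 and AMOTL1) have an antisense partner. Since no source used here states that reads were counted by strand, reads cannot be told apart there either.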

How the data were processed

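RNAseq was conducted on polyadenylated RNA from 18 libraries, 3 per group. Adapters were removed by the authors, who used HISAT2 2.1.0 for alignment (hg38), the Partek E/M algorithm for quantification against RefSeq Transcripts version 93, and DESeq2 for their tests. The deposited signal is their estimate of reads per gene, scaled by size factors of the median-of-ratios kind, so no count model was used. Tables of the authors' own comparisons, with p-values, FDR and ratios, were not used.

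Values were taken as log2(value + 1), which understates the change of low genes. A gene entered the fit of a line when 3 or more of its 9 libraries reached 10. Fits were made with limma 3.58.1 in R 4.3.3 on 3 group means and a trend over the mean, and genes were called at a Benjamini-Hochberg adjusted p below 0.05 over all genes tested. Line differences used the limma fold changes with Satterthwaite degrees of freedom. The fit was tested on simulated data. Tables and figures were made in Python 3.11.15 with pandas 2.3.3 and matplotlib 3.10.9. Intervals are unadjusted 95% intervals, and floors of 3 reads cover counting error only, since the reads carry no molecular identifiers. Depth was estimated from the steps between low values.

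The 10 genes, and the lists and rules beside them, were chosen with earlier results of these data known. All 10 are named in every comparison. Of each further list, up to 6 genes are named per line, those with the largest mean change of both mimics among genes called with both whose mean value reached 100. CCN1, CCN2 and, in RPE-1, STK3 and STK4 are named outside this rule. Correlations with YAP1 used the 3 highest genes per line with the same minimum.

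Replicate numbers (7, 8 and 9 in MCF10A, 1, 2 and 3 in RPE-1) come from the sample labels. Deviations of same-numbered libraries from their group means correlated at 0.263, 0.176 and 0.111 between siNT and miR-28 and at 0.302, 0.115 and 0.155 between siNT and miR-708 in MCF10A, each above 0.1, so the numbers were taken to pair these libraries. The differently numbered siNT replicate 8 and miR-28 replicate 9 also correlated at 0.11. Between miR-28 and miR-708 in MCF10A the same-numbered values were 0.121, 0.025 and 0.177, not all above 0.1. The main fit used no pairing, which entered only as the replicate block. In RPE-1 the correlations with siNT were 0.021 to 0.151, and the numbers were not taken to pair them. Between miR-28 and miR-708 in RPE-1 they were 0.278, 0.198 and 0.134, so the numbers pair those libraries, and the block changed no call of the 10 genes there. Alternatives were a pseudocount of 5, no filter, library size scaling, no trend, a replicate block, and each library left out in turn.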

Additional observations from a re-analysis of the deposited data

Results flagged for a closer look

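Responses were compared between the cell lines by a test of the difference itself, as the log2 fold change in RPE-1 less that in MCF10A. With miR-28, 1 of the 10 genes was called lower, against 11.3% of all genes lower and 12.1% higher. With miR-708, 5 were called lower, against 19.6% lower and 20.2% higher. The 5 include ANKRD1, whose difference supports nothing further, given how it passed the filter in MCF10A, so that count is not read against these shares. With miR-28, AJUBA differed by -0.57. With miR-708, TEAD1 differed by -0.42, LATS2 by -0.62, AMOTL2 by -0.48, ANKRD1 by -2.61 and AJUBA by -0.45. Of these with miR-708, the calls on TEAD1, AMOTL2 and AJUBA were lost under library size scaling (limma adjusted p = 0.217, 0.157 and 0.212) and without some single libraries, and that on AJUBA with miR-28 was lost without siNT replicate 8 or miR-28 replicate 7 of MCF10A. The adjusted p of each is given in the report (limma fold changes with Benjamini-Hochberg adjustment over 13339 genes). The mean of LATS2 with miR-708 was 1.81 times that with siNT in MCF10A and 1.17 times in RPE-1, where it was not called. AJUBA fell in both lines. ANKRD1 was at 3 to 26 reads per library in MCF10A, where it is not called against siNT and passed the filter on low values only through 3 libraries with a mimic, and its difference has a 95% interval from -3.93 to -1.30. The causes were not tested.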

How the results depend on the processing

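Of 80 log2 values of the 10 genes, all 80 kept their direction and their side of the threshold with a pseudocount of 5 or with no filter, and 76 did without a trend over the mean. Leaving out libraries in turn kept 803 of 885 values, and library size scaling kept 51 of 80. The cause of each change below was not tested.

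With the median over all genes tested taken off, all 80 values kept their sign under library size scaling. As they stand, library size scaling turned the direction of 16 values. These were YAP1 (0.017), AMOTL1 (0.021) and AMOTL2 (0.098) with miR-28 in MCF10A, and YAP1 (0.002), WWTR1 (0.011) and AMOTL1 (0.076) with miR-708 in MCF10A. In RPE-1 with miR-708 they were WWTR1 (0.164), TEAD1 (0.186), LATS1 (0.218) and AMOTL1 (0.282), and between the mimics YAP1 (0.145), WWTR1 (0.036), TEAD1 (0.097), LATS1 (0.110) and AJUBA (0.058). For the line difference with miR-708 it was WWTR1 (0.153). AMOTL1 in RPE-1 with miR-708 passed the threshold in this direction (limma adjusted p = 0.0326). In RPE-1 between the mimics, 1 of the 10 genes and 4654 of all genes were then called (2 and 3084 otherwise), and 3 of the 10 differed between the lines with miR-708.

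Without a trend, 4 of the 19 target genes were called with miR-708 in MCF10A, 150 of all genes between the mimics in MCF10A (228 otherwise), 1 of the 10 between the mimics in RPE-1 and 3 of the 10 between the lines with miR-708.

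With the replicate block, 8 target genes were called with miR-28 and 4 of the 10 with miR-708 in MCF10A, and 643 of all genes between the mimics there. In RPE-1, where the numbers were not taken to pair mimic with siNT libraries, the block called LATS2 with miR-708 (limma adjusted p = 0.0401) and, with AMOTL1 (limma adjusted p = 0.0234), made 2 calls in the line difference with miR-28. It changed no other call of the 10 genes except TEAD1 and TEAD4 with miR-708 in MCF10A.

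With 1 library left out, the counts in MCF10A ran from 4 to 9 (other pathway genes), 3 to 6 (targets) and 1949 to 3950 (all genes) with miR-28, and from 2 to 4 (the 10), 3 to 10 (targets) and 3174 to 5483 (all genes) with miR-708, and from 112 to 368 (all genes) between the mimics. In RPE-1 the 10 gave 2 to 6 calls with miR-28 and 1 to 3 between the mimics, where all genes gave 1512 to 4084. The line differences gave 0 to 1 and 2 to 5 of the 10.

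Log2 values that changed sign with 1 library left out were in MCF10A AMOTL1 (-0.187 to 0.042) and AMOTL2 (-0.085 to 0.031) with miR-28, AMOTL1 (-0.240 to 0.065) with miR-708, and YAP1 (-0.151 to 0.016), WWTR1 (-0.068 to 0.096), TEAD1 (-0.006 to 0.147), AMOTL1 (-0.150 to 0.138) and ANKRD1 (-0.182 to 0.493) between the mimics. In RPE-1 they were WWTR1 (-0.034 to 0.187), TEAD1 (-0.049 to 0.047) and LATS1 (-0.046 to 0.105) with miR-28 and AMOTL1 (-0.077 to 0.009) with miR-708. In the line differences they were LATS2 (-0.224 to 0.026) with miR-28 and WWTR1 (-0.103 to 0.060) and AMOTL1 (-0.101 to 0.203) with miR-708. None of these was called.

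Depth limits ANKRD1 in MCF10A, at 3 to 26 reads per library. With 3 libraries per group, a p that misses the threshold does not show that values are alike.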
